A study of Mus musculus with 8 samples.

Results

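The 10 genes described here, Glul, Axin2, Lgr5, Tbx3, Rnf43, Znrf3, Oat, Rhbg, Slc1a2 and Nkd1, are expressed in the hepatocytes around the central vein under the control of Wnt signals. They were chosen by name, with earlier results of these data known, and each matched 1 of the 22504 genes listed. RNA sequencing had been done on 8 Fah-/- mice on a 129S4 background in 3 groups. Without Fah, whose product ends the breakdown of tyrosine, toxic intermediates injure hepatocytes, and the mice stay healthy only on NTBC, which stops the pathway further up and was given at 7.5 mg/L in the drinking water. The 3 C 8w mice had moderate chronic liver injury (MCLI) for 8 weeks, on 2.5% of the standard NTBC. The 3 C 8w + A 4w mice had the same 8 weeks and then severe acute liver injury (SALI) for 4 weeks, with NTBC removed, and are called the SALI group. The 2 C 12w mice had MCLI for 12 weeks. The labels give the tissue of C 12w as tumor and that of the other groups as liver, so a longer injury and tumor tissue cannot be told apart. There was no group on standard NTBC and no Fah+/+ group, and the labels give neither age nor sex. The comparisons ask how these genes differed when severe injury followed moderate injury, and when moderate injury went on until tumors were taken.

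In the liver lobule blood flows from the portal vein to the central vein, and hepatocytes along this path have different tasks. Endothelial cells of the central vein secrete Wnt2, Wnt9b and Rspo3. Wnt ligands bind Frizzled and Lrp5/6 receptors, which lets beta-catenin (Ctnnb1) accumulate, enter the nucleus and act with TCF/LEF factors on target genes. R-spondins bind Lgr4 and Lgr5 and keep the ligases Rnf43 and Znrf3 from removing Frizzled receptors. Axin2 and Nkd1 are target genes that feed back on the pathway, and Tbx3 is a transcription factor of pericentral hepatocytes. The rest of the 10 handle nitrogen around the central vein. Glul is glutamine synthetase, which binds ammonia to glutamate. Rhbg is an ammonia transporter, Slc1a2 (GLT-1) takes up glutamate, and Oat, ornithine aminotransferase, leads from ornithine toward glutamate.

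Values are FPKM, in which fragments are divided by the length of the gene and by the mapped fragments of the sample. FPKM values hold no read counts, so the absolute depth is unknown. Ratios of low values to those of mouse 1a were most often between 0.949 and 1.09, which bears on relative depth only. The summed FPKM was between 324735 and 399342 per mouse. The mouse codes form 2 series, 1a, 2a, 3a, 2e and 3e for C 8w and C 12w, and C096, C097 and C098 for the SALI group, so the second code series cannot be told apart from the SALI treatment. Between these series several abundant genes differed by orders of magnitude. Alb was listed at 0 in the 5 mice of the first series, and Gapdh was between 0.0980 and 0.247 there and between 68.2 and 99.9 in the second. All 7 hepatocyte markers other than Alb passed the expression floor, and their summed FPKM was between 11090 and 19930 per mouse. The labels' extraction text speaks of retinas, but the 9 retina markers summed to between 2.02 and 3.69, nearly all of it Gnat1. Fah RNA was found in every mouse, at 15.6 to 16.8 in C 8w, 5.02 to 6.36 in the SALI group and 13.5 to 14.4 in C 12w, and with no Fah+/+ group this does not check the genotype. Genes of the Y chromosome set C097 and C098 apart. Eif2s3y was at 26.7 in C097 and 26.1 in C098 and was listed at 0 in the other mice, as were Ddx3y, Kdm5d and Uty. Some values and counts below are therefore also given without these 2 mice. This leaves C096 as the only SALI mouse, so the spread in such fits comes from the other groups. Likewise, leaving out 2e or 3e leaves the other as the only C 12w mouse.

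Groups were compared as log2(FPKM + 1) with limma in a single fit of all 8 mice. A gene was tested where 4 or more mice reached an FPKM of 1, which left 10244, and a Benjamini-Hochberg adjusted p under 0.05 counted as a change. Fold changes on this scale understate the change of low genes. Of the 10 genes, 7 passed this floor. Slc1a2, Lgr5 and Nkd1 did not and were tested in a fit without a floor, over 17762 genes. No tissue fraction was measured, so fewer pericentral hepatocytes and less RNA per hepatocyte cannot be told apart.

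The stretches before the start of transcription are shown for Slc1a2, Glul and Oat, the 3 of the 4 nitrogen genes with such a stretch in RefSeq, to set Slc1a2, which holds the letters bound by TCF/LEF factors, beside Glul and Oat, which do not. RefSeq (GRCm38.p6) gave such a stretch for 6 of the 10 genes, with 2 starts for Rnf43, and none for Lgr5, Tbx3, Znrf3 or Rhbg. The letters searched were CTTTGAT or, on the other strand, ATCAAAG, in the 250 bases before each start. They were found in 1 of the 7 windows of these genes and in 3.21% of the 32851 windows of all genes. Capitals mark the match, and all are printed 5′ to 3′ on the strand of the gene.
Slc1a2: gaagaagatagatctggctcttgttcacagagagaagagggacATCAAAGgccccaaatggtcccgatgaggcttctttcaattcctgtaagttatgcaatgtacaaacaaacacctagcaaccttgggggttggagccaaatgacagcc
Glul: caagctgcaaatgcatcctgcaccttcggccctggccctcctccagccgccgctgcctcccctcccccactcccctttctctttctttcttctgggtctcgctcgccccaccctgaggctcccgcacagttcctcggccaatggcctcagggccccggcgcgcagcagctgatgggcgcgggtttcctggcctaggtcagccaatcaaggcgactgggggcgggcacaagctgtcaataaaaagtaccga
Oat: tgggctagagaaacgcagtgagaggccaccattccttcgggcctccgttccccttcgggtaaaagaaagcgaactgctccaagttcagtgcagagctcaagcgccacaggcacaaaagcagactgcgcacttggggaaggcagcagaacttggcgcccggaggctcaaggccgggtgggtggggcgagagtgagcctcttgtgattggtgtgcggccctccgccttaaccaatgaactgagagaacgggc
The Slc1a2 stretch is chr2:102706188-102706337 on the plus strand, and its match lies 207 to 201 bases before a RefSeq start that is 47779 bases inside the gene, in an intron of the longer transcripts. Only 150 bases are shown there because an annotated exon follows. The Glul stretch is chr1:153899679-153899928 on the plus strand, directly upstream of the gene. The Oat stretch is chr7:132576399-132576648 on the minus strand, directly upstream of the gene. The absence of these letters says nothing of TCF/LEF factors at other sites of Glul or Oat.

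Glul in the SALI group differed from C 8w by less than the spread between mice, and in C 12w it was far lower. Its FPKM was 214, 188 and 234 in C 8w (mean 212 ± 22.95 SD, n = 3), 173, 227 and 158 in the SALI group (186 ± 36.5 SD, n = 3), and 52.2 and 22.7 in C 12w (37.5 ± 20.8 SD, n = 2). Both C 12w samples lay below each of the other 6, whereas the ranges of C 8w and the SALI group overlapped. The mean of C 8w was 5.66 times that of C 12w, and the mean of the SALI group 4.97 times. On the log2 scale Glul fell by 2.58 (SE 0.32, adjusted p = 0.00246) from C 8w to C 12w and was 2.38 higher (SE 0.32, adjusted p = 0.000912) in the SALI group than in C 12w. Between the SALI group and C 8w the difference was -0.20 with a 95% interval from -0.84 to 0.45 (adjusted p = 0.605). Glul lies at chr1:153899944-153909723 (GRCm38, plus strand), and 11.9% of its 50-base windows occur in another annotated gene, so some of its reads may have been counted elsewhere.

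Rhbg was lower than in C 8w in both other groups. The 3 C 8w mice had an FPKM of 17.9, 14.0 and 19.6 (17.2 ± 2.84 SD). The SALI mice had 3.05, 7.59 and 4.99 (5.21 ± 2.28 SD), and the C 12w samples 5.59 and 2.03 (3.81 ± 2.52 SD). No mouse of either group reached the lowest of C 8w, and the ranges of the SALI group and C 12w overlapped. Rhbg fell by 1.60 on the log2 scale (SE 0.34, adjusted p = 0.00649) from C 8w to the SALI group and by 2.01 (SE 0.37, adjusted p = 0.0107) to C 12w. Between the SALI group and C 12w the difference was 0.41 (95% interval -0.45 to 1.26, adjusted p = 0.435). Without C097 and C098, with C096 as the only SALI mouse, the fall was 2.15. Rhbg (chr3:88242874-88254709, minus strand) overlaps Gm38392 on the same strand. Of its windows 60.4% occur in another annotated gene, so some of its reads may have been counted elsewhere. Gm38392 itself had between 9.44e-05 and 0.977 FPKM.

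Slc1a2 was low in every mouse and fell the furthest in proportion. Its FPKM was 1.35, 1.53 and 0.850 in C 8w (1.24 ± 0.352 SD), 0.173, 0.250 and 0.213 in the SALI group (0.212 ± 0.0382 SD), and 0.0923 and 0.103 in C 12w (0.0976 ± 0.00752 SD). The 3 groups did not overlap at all. The mean of C 8w was 5.86 times that of the SALI group and 12.7 times that of C 12w. In the fit without a floor Slc1a2 fell by 0.88 on the log2(FPKM + 1) scale (SE 0.11, adjusted p = 0.00231) to the SALI group and by 1.02 (SE 0.12, adjusted p = 0.00643) to C 12w. The difference between the SALI group and C 12w was 0.14 (95% interval -0.15 to 0.44, adjusted p = 0.474). Without C097 and C098 the first fall was 0.92 with an adjusted p of 0.0503, and with only C 8w and C 12w in the fit the second had 0.0508. Slc1a2 spans chr2:102658659-102790784 on the plus strand.

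Oat was lower in each SALI mouse than in each C 8w mouse, and the 2 C 12w samples lay on either side of both groups. It was at 77.0, 60.7 and 59.8 in C 8w (65.8 ± 9.67 SD) and at 16.4, 15.6 and 12.9 in the SALI group (14.97 ± 1.82 SD). In C 12w it was at 136 in mouse 2e, the highest of all 8, and at 10.7 in mouse 3e, the lowest. C 8w and the SALI group did not overlap, and the mean of C 8w was 4.40 times the other. The difference of -2.06 (SE 0.72, 95% interval -3.71 to -0.42) nevertheless missed the threshold, with an adjusted p of 0.0502, in the fit that shares its spread with C 12w. With only the 2 groups in the fit the adjusted p was 1.47e-05, and after scaling to a common sum it was 0.0356. Between C 12w and C 8w the difference of -0.73 (adjusted p = 0.534) was an average of unlike samples. Without mouse 2e it was -2.51, and without mouse 3e it was 1.05, each with only the other C 12w mouse left. Against C 12w, the SALI difference of -1.33 (adjusted p = 0.239) became 0.45 without 2e and -3.11 without 3e. Oat lies at chr7:132557478-132576398 on the minus strand.

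**Figure D1:**
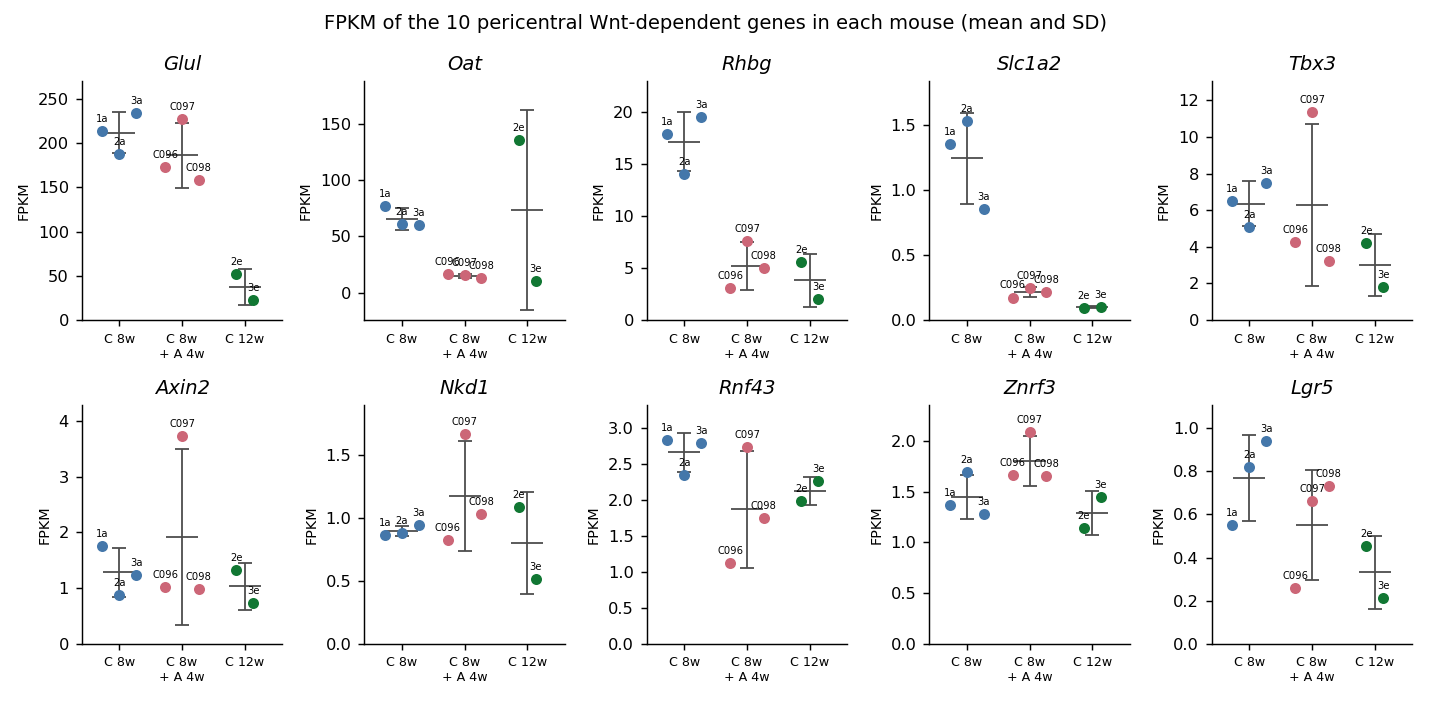
FPKM of each of the 10 genes (y axes, linear, with a separate scale for each gene) in each mouse, by group on the x axes, where C 8w + A 4w is the SALI group. Points are mice, the wide bar is the group mean and the error bar its SD. Glul was lowest in the 2 C 12w samples, Rhbg and Slc1a2 were highest in the 3 C 8w mice, and Oat was at 136 in 2e and 10.7 in 3e.

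Tbx3, Axin2, Nkd1, Rnf43, Znrf3 and Lgr5 did not pass the limma test in any of the 3 comparisons. Among these 6 genes the unadjusted limma p was under 0.05 only for Lgr5, in C 12w against C 8w. Tbx3 (chr5:119670669-119684724) had an FPKM of 6.51, 5.06 and 7.51 in C 8w, 4.25, 11.4 and 3.21 in the SALI group, and 4.23 and 1.82 in C 12w. Both C 12w samples lay below every C 8w mouse, and C097 was above them all. The C 12w difference from C 8w was -0.92 on the log2 scale, with a 95% interval from -1.93 to 0.08 and an adjusted p of 0.161. That of the SALI group from C 8w was -0.17 (95% interval -1.07 to 0.73, adjusted p = 0.76) and became 0.14 without C098.

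Axin2, a scaffold of the complex that degrades beta-catenin and a widely used readout of Wnt signalling, was at 1.75, 0.880 and 1.23 in C 8w, 1.02, 3.73 and 0.992 in the SALI group, and 1.33 and 0.726 in C 12w. The groups overlapped, and C097 stood above all other mice. The difference of the SALI group from C 8w was 0.24 (95% interval -0.52 to 0.99, adjusted p = 0.592), and -0.17 without C097. That of C 12w from C 8w was -0.17 (95% interval -1.02 to 0.67, adjusted p = 0.758). Nkd1, an inhibitor that binds Dishevelled, was at 0.864, 0.883 and 0.945 in C 8w, 0.829, 1.67 and 1.03 in the SALI group, and 1.09 and 0.514 in C 12w. Its C 8w mice were close together, and the differences were within the spread of the other groups (0.18 for the SALI group against C 8w, adjusted p = 0.512). Axin2 lies at chr11:108920349-108950783 and Nkd1 at chr8:88521354-88594884.

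The membrane genes of the R-spondin branch were between 0.210 and 2.83 FPKM in every mouse, and 0 of the 3 passed the limma test. Rnf43 (chr11:87662722-87735539) was at 2.83, 2.35 and 2.79 in C 8w, 1.13, 2.73 and 1.75 in the SALI group, and 1.99 and 2.26 in C 12w. Its difference of the SALI group from C 8w was -0.39 (95% interval -0.83 to 0.05, adjusted p = 0.141). It reached -0.60 (adjusted p = 0.0199) without C097 and -0.53 (adjusted p = 0.0382) after quantile normalization. Without both C097 and C098, with C096 as the only SALI mouse, it was -0.78. Znrf3 (chr11:5276324-5444847) was at 1.37, 1.70 and 1.28 in C 8w, 1.67, 2.09 and 1.66 in the SALI group, and 1.14 and 1.45 in C 12w. The 3 SALI mice were above both C 12w samples, with a difference of 0.29 (95% interval -0.02 to 0.61, adjusted p = 0.139). Lgr5 (chr10:115450311-115587780), which marks pericentral hepatocytes as well as stem cells of other tissues, was at 0.552, 0.819 and 0.938 in C 8w, 0.257, 0.664 and 0.729 in the SALI group, and 0.452 and 0.210 in C 12w. Both C 12w samples were below every C 8w mouse, by -0.41 on the log2 scale (95% interval -0.81 to -0.01, adjusted p = 0.168).

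The calls among the 10 genes are given here beside the share of all genes called. From C 8w to the SALI group, 1 of the 7 genes tested was called, Rhbg, and it fell. Of all genes tested 39.4% were called, 14.1% of them lower and 25.3% higher as shares of all. In the fit without a floor Slc1a2 was called as well, where 24.3% of all genes were called, 7.92% of them lower and 16.3% higher as shares of all. From C 8w to C 12w, 2 of the 7 were called, Glul and Rhbg, and both fell, where 19.2% of all genes were called, 12.2% higher and 6.98% lower. Slc1a2 was added without a floor, where 10.2% of all genes were called, 3.67% lower and 6.53% higher. Between the SALI group and C 12w only Glul was called among the 7, and it was higher in the SALI group, where 32.8% of all genes were called, 17.4% higher and 15.4% lower. Without a floor 21.8% of all genes were called there, 11.9% higher and 9.88% lower. The counts by ranges cover all 10 genes, including Slc1a2, Lgr5 and Nkd1, which did not pass the floor. The shares beside them cover only genes over the floor, so the sets are unlike. By ranges alone, C 12w lay wholly below C 8w in 6 of the 10 genes (Glul, Lgr5, Tbx3, Rnf43, Rhbg and Slc1a2) and in 19.6% of all genes tested. The SALI group lay wholly below C 8w in 3 of the 10 (Oat, Rhbg and Slc1a2) and in 22.3% of all genes tested. None of the 10 lay wholly above C 8w in either group, against 39.0% of all genes for the SALI group and 34.9% for C 12w. The SALI group lay wholly above C 12w in 3 of the 10 (Glul, Znrf3 and Slc1a2) and in 28.1% of all genes tested, and wholly below it in 0, against 24.2%. The 2 differences from C 8w share the C 8w mice, so they are set side by side and not compared with each other.

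The shares of higher and lower calls over all genes depended on the scaling between mice. Higher genes made up 64.2% of the calls of the SALI group against C 8w and 47.1% after quantile normalization. For C 12w against C 8w they made up 63.6%, and 46.2% with median-ratio scaling over genes with little shared sequence. For the SALI group against C 12w they made up 53.1%, and 36% after scaling to a common sum. The median difference of all genes tested was 0.122 for the SALI group and 0.118 for C 12w, both against C 8w. The falls of Glul, Rhbg and Slc1a2 kept their direction under all scalings tried.

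**Figure D2:**
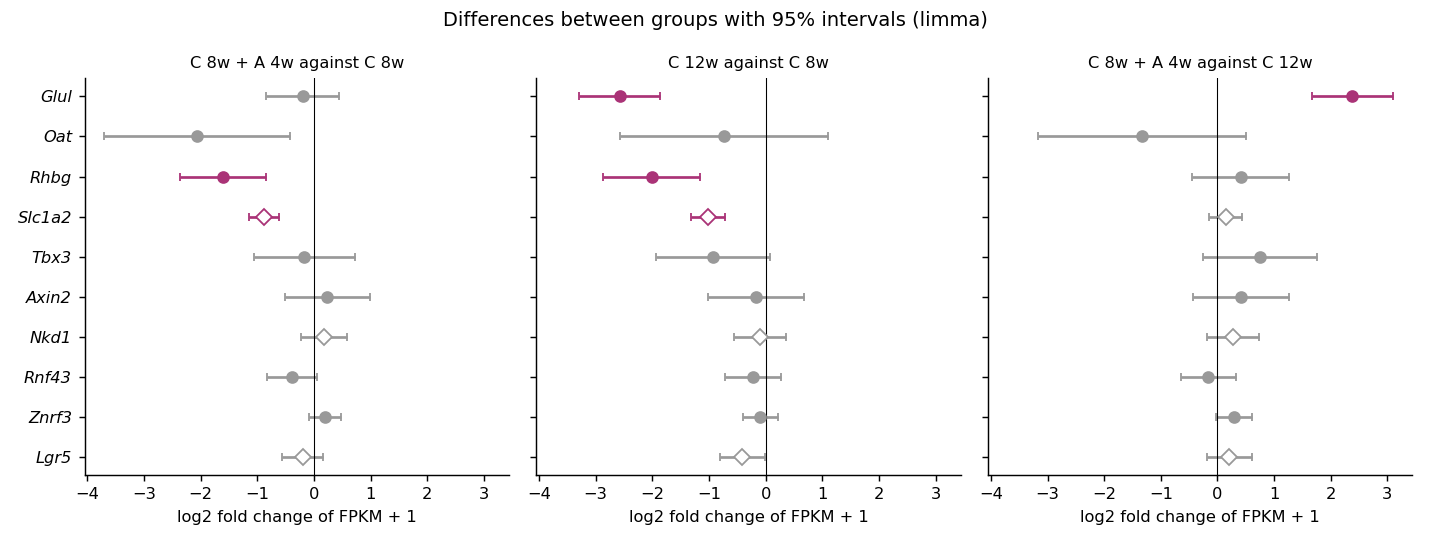
Difference in log2(FPKM + 1) between groups (x axes) for the 10 genes (y axes) in the 3 comparisons, with 95% intervals from limma. Purple marks an adjusted p under 0.05, circles the genes tested over the expression floor and open diamonds those tested without it. From C 8w Glul is 2.58 lower in C 12w, and its interval for the SALI group (C 8w + A 4w) against C 8w includes 0, while Rhbg and Slc1a2 are purple in both comparisons with C 8w.

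Within groups the genes also moved from mouse to mouse. The counts over the 10 genes here again include Slc1a2, Lgr5 and Nkd1, which did not pass the floor set for all genes tested. C097 had the highest value of the 3 SALI mice in 8 of the 10 genes, where it did so in 49.5% of all genes tested. The exceptions were Oat and Lgr5. For Axin2 its 3.73 compared with 1.02 and 0.992, and for Tbx3 its 11.4 with 4.25 and 3.21. The 6 macrophage markers summed to 262 in C097 and to 89.7 and 66.4 in C096 and C098, with each defining marker above 0 in all 3 mice. C097 also carried the Y-linked genes, as did C098, which had the lowest Tbx3 of the group. The part of macrophages and of the Y-linked difference in these values was not tested. Between the 2 tumors, 2e was above 3e in 7 of the 10 genes, where it was above in 39.2% of all genes tested. The exceptions were Rnf43, Znrf3 and Slc1a2. The bile duct markers summed to between 9.61 and 15.4 in C 8w, 40.95 and 46.5 in the SALI group, 32.5 in 2e and 340 in 3e. The marker Spp1 made up most of the tumor sums, at 22.2 in 2e and 311 in 3e, and shares 11.6% of its windows with other genes. Of the 5 tested, 2 rose in the SALI group against C 8w, where 25.3% of all genes tested rose. In C 12w 4 of the 5 rose against C 8w, where 12.2% of all genes did. The rises in the SALI group were 5 without 2e or without 3e, and those in C 12w were 0 without 1a or 3a, 1 without 2a, and 2 after quantile normalization or without C096, C097, C098 or both of the last 2. The cycling markers, which had between 0.830 and 2.21 in the 6 livers, summed to 19.1 in 2e and 30.8 in 3e. Their part in the levels of the 10 genes was not tested.

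The ligands that maintain the pericentral zone were low in whole tissue. Wnt2 was at 1.498, 1.90 and 1.97 in C 8w, 0.646, 1.102 and 1.40 in the SALI group, and 1.02 and 0.613 in C 12w. The C 8w mice were above all others, but neither difference from C 8w passed the test (-0.46, adjusted p = 0.0583, and -0.62, adjusted p = 0.0501). Rspo3 was at 2.45, 2.75 and 2.69 in C 8w, 2.20, 4.14 and 3.61 in the SALI group, and 1.57 and 0.932 in C 12w. It was 0.93 higher in the SALI group than in C 12w (SE 0.21, adjusted p = 0.0112), a call lost without 3e and without C097 and C098. In C 12w it differed from C 8w by -0.70 (adjusted p = 0.0501). Wnt9b was between 0.114 and 0.542 in all mice and did not pass the test. Of the 25 ligand and secretion genes listed, 5 passed the floor. Wnt4, which mainly acts without beta-catenin, was at 0.433, 0.546 and 1.11 in C 8w, 8.54, 6.35 and 6.83 in the SALI group, and 3.99 and 16.5 in C 12w. It rose by 2.29 (adjusted p = 0.00268) and 2.48 (adjusted p = 0.00931) against C 8w. Wnt5b, also mainly outside the beta-catenin branch, fell by 0.53 (adjusted p = 0.0261) and 0.70 (adjusted p = 0.0258). With either median-ratio scaling or quantile normalization, 2 of the 5 ligand and secretion genes tested fell from C 8w to the SALI group and 3 fell to C 12w, against 1 each without scaling, and 3 fell to C 12w also without C096 or without 2e. Leaving out C097 and C098 gave 2 falls in each of these comparisons. The first call of Wnt5b was lost without 1a, 2a, 3a or C096, and the second without 1a, 2a, 3a or 3e.

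Endothelial cells are a source of these ligands. Of 8 endothelial markers, 3 fell and 1 rose from C 8w to the SALI group (median -0.341), and 3 fell from C 8w to C 12w (median -0.289). Of all genes tested 14.1% fell and 25.3% rose in the first comparison, and 6.98% fell in the second. The first falls were 5 with median-ratio scaling or quantile normalization and the rise was lost without 1a, without C098, or without both C097 and C098, and the second falls were 1 without 1a, 3a or 3e. Their summed FPKM was between 47.9 and 51.1 in C 8w, 23.2 and 41.4 in the SALI group, and 27.7 and 32.8 in C 12w. All 8 were above 0 in every mouse. Clec4g, a marker of sinusoidal endothelium, fell by 1.35 (adjusted p = 0.00809) in the SALI group and by 1.52 (adjusted p = 0.0183) in C 12w. Lyve1, the marker called higher, rose by 1.18 (adjusted p = 0.0177) in the SALI group. It was at 1.56, 1.97 and 2.08 in C 8w and at 2.64 and 3.69 in C 12w, where it was not called. The part of endothelial cell number in the ligand values was not tested.

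The receptors and core genes of the pathway are read against the 25.3% of all genes called higher and 14.1% called lower in the SALI group against C 8w. Ctnnb1 was between 53.8 and 76.2 in all 8 mice and passed no test (0.08 for the SALI group and 0.24 for C 12w, both against C 8w). Of 17 receptor genes 10 were tested, and from C 8w to the SALI group 2 rose and 1 fell, near those shares. There Fzd5 (1.00, adjusted p = 0.00944) and Fzd6 (0.64, adjusted p = 0.00193) rose while Lgr4, a receptor of R-spondins, fell by 0.54 (adjusted p = 0.015). Lgr4 was at 16.4, 19.9 and 15.4 in C 8w, 9.71, 12.7 and 12.2 in the SALI group, and 12.2 and 13.2 in C 12w, and its call was lost without 2a. Without C097 and C098 only 1 of the 10 receptors rose there, and the receptors that fell there were 3 with either median-ratio scaling and 4 after quantile normalization. In C 12w Fzd4 fell by 0.77 (adjusted p = 0.00868) and Fzd6 rose by 0.61 (adjusted p = 0.0115), a call lost without 1a. The falls in C 12w were 2 with either median-ratio scaling or without 3e and 3 after quantile normalization, and the rises were 4 without 2e. Of 12 genes of beta-catenin and its destruction complex tested, 5 rose and 1 fell from C 8w to the SALI group (median 0.253). The rises were down to 1 after scaling to a common sum or without 3a and to 0 without 1a or without C097 and C098, and 3 rose and 2 fell after quantile normalization. The fall, of Dvl1, a Dishevelled that passes on the signal, was 0.87 (adjusted p = 0.00157). In C 12w 1 of these 12 rose, Axin1, and 7 did without 2e but 0 without any single C 8w mouse, without C096, without C098, without both C097 and C098, with either median-ratio scaling or after quantile normalization. Of 7 TCF/LEF factors and co-factors tested, only Bcl9 rose in the SALI group against C 8w (0.58, adjusted p = 0.00472), and 0 changed in C 12w by limma, with 1 at an unadjusted p under 0.05. With either median-ratio scaling or quantile normalization 3 of the 7 also fell in the SALI group, and without 2e 2 rose and 1 fell in C 12w. Without C097 and C098 the calls of Bcl9 here and of Dkk3 against C 8w were lost.

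**Figure D3:**
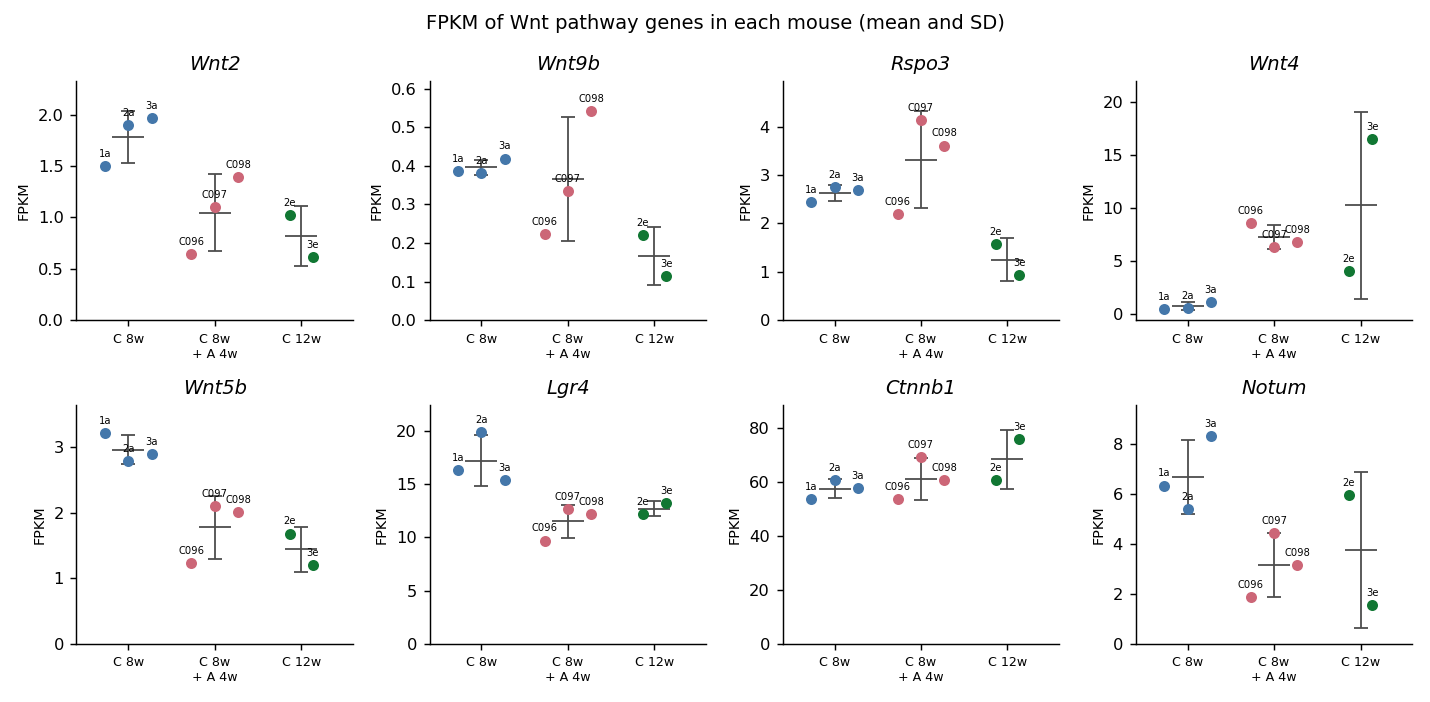
FPKM (y axes, linear, with a separate scale for each gene) of 8 Wnt pathway genes in each mouse, by group on the x axes. Points are mice, the wide bar is the group mean and the error bar its SD. Wnt2 is highest in the C 8w mice, Rspo3 lowest in the 2 C 12w samples, and Ctnnb1 lies between 53.8 and 76.2 throughout.

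Of 15 Wnt inhibitors 3 passed the floor. Dkk3 was higher in the SALI group than in C 8w (0.73, adjusted p = 0.00403) and than in C 12w (0.92, adjusted p = 0.00281). Notum, a secreted enzyme that inactivates Wnt ligands and is itself a Wnt target, is named after its values were seen. It was at 6.32, 5.38 and 8.30 in C 8w, 1.85, 4.42 and 3.15 in the SALI group, and 5.96 and 1.54 in C 12w. The 3 SALI mice were below each C 8w mouse, but the difference of -0.92 missed the threshold (adjusted p = 0.0788). Without 2e or without 3e, 1 of the 3 inhibitors tested fell in this comparison, against 0 by limma with all mice, where Notum had an unadjusted p under 0.05. Of 5 general targets 4 were tested. Myc rose in the SALI group (0.89, adjusted p = 0.00337) and in C 12w (0.90, adjusted p = 0.0138, a call lost without 1a) against C 8w. Tnfrsf19, a receptor of the TNF family, rose in the SALI group against both other groups (0.82, adjusted p = 0.00182, and 0.91, adjusted p = 0.00249).

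The other pericentral genes listed include several cytochrome P450 enzymes. Of 17 such genes, all tested, 11 fell and 1 rose from C 8w to the SALI group, with a median of -2.03, and 8 fell from C 8w to C 12w, with a median of -1.22. Of all genes tested 14.1% fell and 25.3% rose in the first comparison, and 6.98% fell in the second. Of the 7 general hepatocyte markers tested, 2 fell and 1 rose in the SALI group (median -0.767), and 2 rose in C 12w (median 0.753), both against C 8w, and their part in these counts was not tested. Over the scalings and mice left out, the falls of these markers in the SALI group were between 0 and 4 and their rises in C 12w between 0 and 4, with 0 of either without C097 and C098. Under the scalings and samples left out, the first count of falls was between 10 and 14. The second was 13 without 2e, 6 without 3e and 4 without any single C 8w mouse. Cyp2e1, a cytochrome P450 that oxidizes ethanol and small solvents, was at 1672, 1559 and 1916 in C 8w, 521, 900 and 795 in the SALI group, and 289 and 217 in C 12w. The 3 groups did not overlap. Cyp2e1 fell by 1.25 (adjusted p = 0.00397) to the SALI group and by 2.77 (adjusted p = 0.00117) to C 12w, and was 1.52 higher in the SALI group than in C 12w (adjusted p = 0.00323), a call lost without C097 and C098. Cyp1a2, which metabolizes caffeine, fell from between 522 and 590 in C 8w to between 38.0 and 156 in the SALI group and to 80.7 and 143 in C 12w. Rgn (regucalcin) was at no more than 25.9 in the SALI group and fell by 3.19 (adjusted p = 0.000345), and in C 12w it was at 132 and 75.8. Cyp2a5, the 1 listed as rising, was at 0 in 2a and 3a and at 7546 in 1a, and shares 37.0% of its windows with other genes, so no fold is given. Its call was lost with either median-ratio scaling and without 2a, 3a, C096, C097 or C098. Between the SALI group and C 12w, 2 of the 17 were higher and 3 lower. Among all genes tested the shares were 17.4% and 15.4%. Both counts of the 17 changed without 2e, without 3e, and without both C097 and C098, each a fit with a lone mouse in a group.

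Periportal genes are expressed at the opposite end of the lobule. Against C 8w, 14.1% of all genes tested fell and 25.3% rose in the SALI group. In C 12w 6.98% of all genes fell and 12.2% rose. Of 14 periportal genes tested, 8 fell, 2 rose and 4 were not called from C 8w to the SALI group (median -1.18). The falls were 5 without 1a and 4 without C097 and C098, which also left 1 rise. From C 8w to C 12w, 1 rose, Cdh1, and 0 fell in limma (median -0.209, 5 at an unadjusted p under 0.05), but 6 fell without 2e, and 4 rose and 1 fell without 3e. Gls2, the liver glutaminase that releases ammonia from glutamine and so runs against Glul, was at 132, 117 and 107 in C 8w, 14.5, 17.9 and 24.5 in the SALI group, and 136 and 69.4 in C 12w. It was lower in the SALI group than in C 8w by 2.61 on the log2 scale (log2 fold change -2.61, adjusted p = 0.000164) and than in C 12w (-2.33, adjusted p = 0.00073). Ass1, a urea cycle enzyme, ran the other way, at 12.2 to 15.05 in C 8w and 267 to 283 in the SALI group, and 38.6% of its windows occur in other genes.

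**Figure D4:**
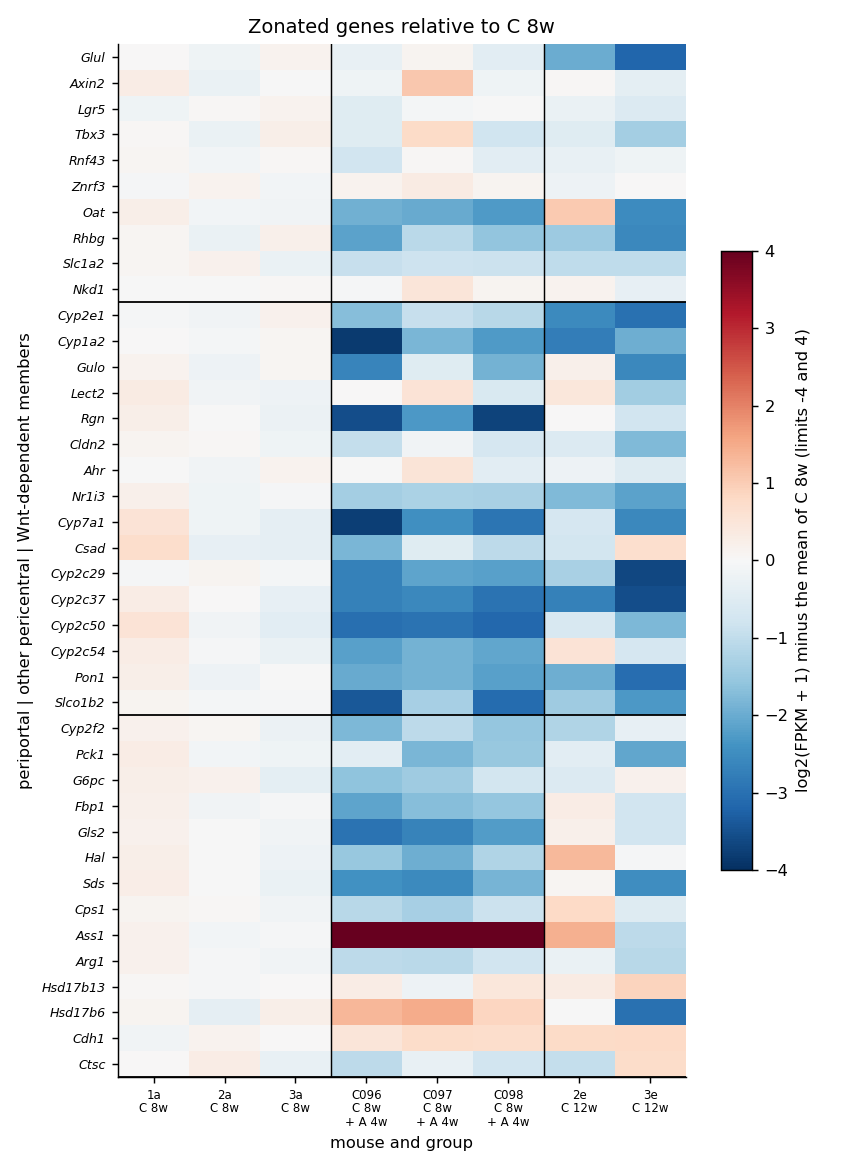
Difference of log2(FPKM + 1) from the C 8w mean (colour, blue lower and red higher, limits -4 and 4) for the 10 genes, 16 other pericentral genes and 14 periportal genes (y axis, 3 blocks from top to bottom) in each mouse (x axis). Cyp2a5 is left out because it is listed at 0 in 2 mice, and Ass1 exceeds the upper limit in C096, C097 and C098. Glul is near white in the SALI group while Cyp1a2, Rgn and Gls2 are blue there, and Oat differs between 2e and 3e.

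The list of genes around glutamine and ammonia held 24 others. Of these, 19 were tested, and 7 fell and 5 rose from C 8w to the SALI group, while 2 fell and 1 rose from C 8w to C 12w. Of all genes tested 14.1% fell and 25.3% rose in the first comparison, and 6.98% fell and 12.2% rose in the second. The rises in the SALI group were 3 without C097 and C098. In C 12w the falls were 6 without 2e and 1 without 1a or 2a, and the rises 3 without 2e and 2 without 3a or 3e. Prodh, proline dehydrogenase, was at 23.0, 22.3 and 22.8 in C 8w, 4.67, 6.63 and 7.03 in the SALI group, and 7.20 and 3.47 in C 12w. It fell by 1.75 (adjusted p = 0.000559) and by 1.97 (adjusted p = 0.00268). Otc, which consumes ornithine in the urea cycle as Oat does outside it, fell by 1.47 (adjusted p = 4.54e-05) in the SALI group and by 0.66 (adjusted p = 0.0139) in C 12w.

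The genes whose profile over the 8 mice was nearest to that of Glul were found by the root mean square difference of centred log2(FPKM + 1) values over all genes tested outside the 10. Fitm1 (0.232), Sult2a5 (0.285) and Tnnc1 (0.344) came first, where Glul itself had a range of 3.31 over the mice. Fitm1, which helps form lipid droplets, was between 11.4 and 19.9 in the 6 livers and at 4.23 and 0.868 in the tumors. Sult2a5 shares 34.5% of its windows with other genes. Among the nearest to Axin2, which had a range of 1.46, were Raet1e (0.196) and Emilin2 (0.224). Both were highest in C097, as Axin2 was, at 3.83 and 2.52. Raet1e shares 44.7% of its windows with other genes.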

How the data were processed

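RNA sequencing values of 8 mice in 3 groups were used, grouped by their treatment labels. The deposited FPKM values were made by the authors, scaled by gene length and mapped fragments, in a table of 22504 genes. It held 0 columns of other samples. The submitters' processing notes name Bowtie 0.12.2 and the mm8 build, without their roles. Quantifier and annotation are not given in the sources used here, so coordinates come from GENCODE M21 and RefSeq, both GRCm38, and not from the table. Replicates are separate mice by their labels.

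The comparisons used limma 3.58.1 in R 4.3.3 (lmFit, eBayes with a trend) on log2(FPKM + 1), for genes that reached an FPKM of 1 in 4 or more mice, two-sided, with Benjamini-Hochberg adjustment over all genes tested. Intervals are 95% limma intervals. Shared sequence is the percentage of 50-base windows of a gene's transcripts found in another gene. It was computed with Python 3.11.15. The fit was tested on simulated data.

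The 10 genes and all gene lists were chosen with earlier results of these data known. The genes named are the 10, a fixed few of the pathway and its zones, up to 3 called genes of each list with the largest change in each comparison, and the 3 profiles nearest to Glul and to Axin2. Some genes that this rule names are not reported here. Clec4g, Gapdh, Gnat1, Notum and the Y-linked genes were added after their values were seen. The alternatives were a pseudocount of 0.1, other floors, 4 scalings, genes with at most 2% shared sequence, only the groups compared, eBayes without a trend, each mouse left out and a replicate block. Leaving out C097 and C098 was added after seeing the data.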

Additional observations from a re-analysis of the deposited data

How the results depend on the processing

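Of 475 values of single genes under other settings, 450 kept their direction and their side of the threshold. Glul and Rhbg kept every call they had wherever they were tested. With the SALI group against C 8w, where 1 of the 10 genes was called, 2 were called with a pseudocount of 0.1, a floor of 0.1, no floor, quantile normalization, scaling to a common sum, only the 2 groups, or without C097 and C098, and 1 to 2 with each mouse left out. Among genes with little shared sequence 0 were called in any comparison, since Glul and Rhbg are themselves left out of that set. With the SALI group against C 12w the count of 1 was 1 to 2 with each mouse left out, and with C 12w against C 8w the count of 2 was 2 to 3. The number of all genes called, with each mouse left out, ranged from 2469 to 3578 for the SALI group against C 8w, from 2494 to 4214 for it against C 12w, and from 677 to 3702 for C 12w against C 8w. Without C097 and C098 the first 2 numbers were 2511 and 1997, and with only its 2 groups the second was 1996. Where leaving out mice left 1 in a group, that mouse was assumed to vary like the other groups. The cause was not tested, beyond the fewer mice in each fit.

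Directions turned only where no call had been made. With each mouse left out, the log2 difference of the SALI group from C 8w ranged from -0.17 to 0.45 for Axin2 and from -0.63 to 0.14 for Tbx3. Without C097 and C098, Axin2 was at -0.17 and Nkd1 at -0.053. The difference of the SALI group from C 12w ranged from -0.002 to 0.63 for Axin2, from -0.37 to 0.036 for Rnf43, from -3.11 to 0.45 for Oat and from -0.15 to 0.97 for Rhbg, and without C097 and C098 it was -0.14 for Rhbg and -0.077 for Lgr5. That of C 12w from C 8w ranged from -0.39 to 0.045 for Axin2, from -0.19 to 0.0022 for Znrf3, from -2.51 to 1.05 for Oat and from -0.33 to 0.14 for Nkd1. The numbers 2 and 3 occur in the labels of both MCLI groups. The difference of mouse 3 from mouse 2 in C 12w had r = -0.189 across genes with that in C 8w. As this rests only on mice 2 and 3 of each group, it cannot decide whether the numbers pair the mice. With the number as a replicate block 252 genes were called in C 12w against C 8w, and 2 of the 10, while the call of Slc1a2 was lost (adjusted p = 0.439 by limma). FPKM holds no counts, so what depth allows for low genes such as Slc1a2, Lgr5 and Nkd1 is unknown.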
